A study of Mus musculus with 6 samples.

Results

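The sperm tail carries, around its motile core, a fibrous sheath and outer dense fibres, and 9 genes for these parts and for their assembly were followed here across mouse gonads: Akap3, Akap4, Odf1, Odf2, Cabyr, Ropn1, Ropn1l, Oaz3 and Meig1. All probe sets that the platform annotation pairs with 1 of these symbols were taken, which gave 26 of 45101 probe sets and 9 of 18193 genes. The gonads came from C57BL/6 mice, an inbred strain, with no mutation and no treatment in any group. Testis and ovary were each measured in fetuses at 15.5 days postcoitum, in neonates on day 1 after birth and in adults aged 10 weeks, on 6 Affymetrix arrays in all. Each of the 6 groups is 1 array. Without replicates, no difference below could be set against the spread between animals, and neither p-values nor standard errors are given. The number of animals behind an array is not stated in the labels. The series' title describes a search for genes that segregate chromosomes at meiosis I.

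The tail of a sperm cell is built in the haploid cells after meiosis, the spermatids. The outer dense fibres run along the microtubule axoneme and stiffen it, and the fibrous sheath encloses the principal piece of the tail, where it holds glycolytic enzymes and anchors protein kinase A, the cAMP-dependent kinase of sperm motility. Fetal and neonatal testes hold no spermatids, and ovaries never do.

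Signals are array brightness values, multiplied by 1 factor per array to a common 2% trimmed mean. Signals under a floor of 75.3, the median of all scaled signals, were treated as being at the floor, so that they have no order among themselves, and ratios against them are lower bounds, given with the words at least. Differences of 4-fold or more between arrays were counted as calls. The brightness of 1 probe set cannot be set against that of another, so levels are compared between arrays only. In a whole gonad, fewer cells of a type and less RNA per cell cannot be told apart.

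The spermatid markers separated the adult testis from the other arrays: 10 of 10 (Prm1, Prm2, Tnp1 and others, with Gapdhs also in the fibrous sheath list below) were above the floor there, against 0 to 2 on each of the other 5 arrays, with summed signals of 75508 against 286.7 to 447. Of 9 spermatocyte markers, 9 were above the floor in adult testis and 2 to 5 on the others. None of 7 epididymis markers was above the floor in adult testis. In neonatal ovary the oviduct gene Ovgp1 had a signal of 1961, against at most 187.9 on the other arrays. The deposited mean of 9 hybridization controls was 1170 on the adult testis array, 1525 on the neonatal ovary array and 2206 to 2708 on the other 4. The ratio of 3' to 5' signal, which rises as RNA breaks down, was 3.12 for Gapdh in neonatal ovary, 2.36 in adult testis and 1.32 to 1.45 on the other 4 arrays. The order differed for Actb, with adult testis the lowest at 1.81 and the remaining 5 arrays between 2.91 and 3.78.

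All 9 sperm tail genes were higher in adult testis, both against neonatal testis and against adult ovary. Their signals in adult testis lay between 5572 and 10548, where the highest scaled signal of any probe set on that array was 12070. On the other 5 arrays none of the 9 exceeded 233.3 by its brightest probe set, the one used for all gene-level values. The ratios of adult to neonatal testis lay between 40.9 for Ropn1l and at least 140.1 for Meig1, and those of adult testis to adult ovary between 72.1 for Ropn1 and at least 140.1 for Meig1. Both comparisons use the same adult testis array. Among all 18193 genes, 10.7% passed 4-fold upwards from neonatal to adult testis and 10.9% were higher in adult testis than in adult ovary, with 10.3% and 11.9% lower. Scaled to the hybridization controls instead, 20.4% were higher and 2.69% lower than in neonatal testis, and 17.7% and 4.91% than in adult ovary, with all 9 members still called higher. The calls of Odf2 and Oaz3 rest on probe sets whose names carry a suffix letter before _at. Without all such probe sets, which leaves none for Cabyr, 6 of 8 genes were called in either comparison. Of all genes, 10.2% were then higher than in neonatal testis and 10.3% than in adult ovary. The log2 ratio to neonatal testis was then 1.10 for Odf2, while Oaz3 was at the floor on both testis arrays. A ratio of 64 or more to neonatal testis was reached by 8 of the 9 genes, all but Ropn1l, and by 0.995% of all genes. This count depends on the floor, against which most of these ratios are taken, and so on the adult testis brightness. With a floor at the 75th percentile the median log2 ratio of the 9 genes was 4.68, which is under 64-fold. The median log2 ratio of the 9 genes to neonatal testis was 6.82, a lower bound because it rests on genes at the floor, and that of all genes was 0.00. Over all genes above the floor on both arrays the median was -0.50. Adult testis was 4-fold or more above each of the other 5 arrays for all 9 genes, and for 8.87% of all genes.

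**Figure D1:**
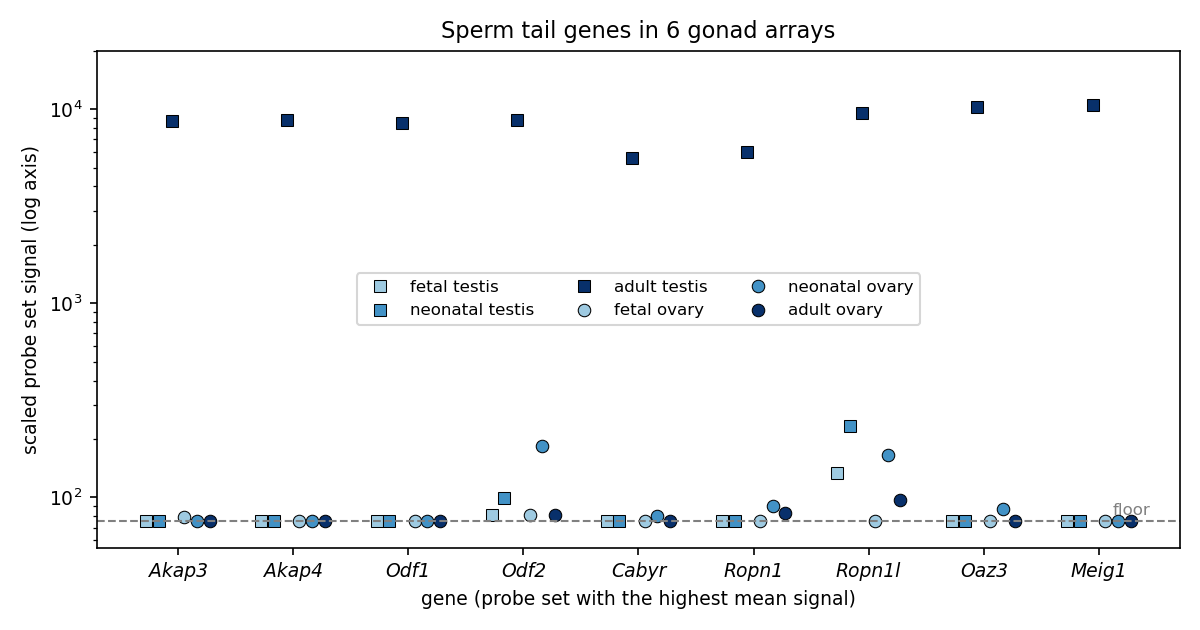
Scaled signal of the 9 sperm tail genes (log axis) on the 6 arrays, 1 point per array, squares for testis and circles for ovary, darker with age; values under the floor of 75.3 (dashed line) are drawn at it. The adult testis points lie between 5572 and 10548, and no other point exceeds 233.3.

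Akap4 and Akap3 encode the A-kinase anchoring proteins that make up much of the fibrous sheath, Akap4 on the X chromosome and Akap3 on chromosome 6. Akap4 had a scaled signal of 8775 in adult testis with its brightest probe set (1419019_a_at) and was at the floor in fetal and neonatal testis and in fetal, neonatal and adult ovary. The ratio to neonatal testis was at least 116.6. Both other Akap4 probe sets showed the same split, with 7074 and 6969 in adult testis and the floor on the other 5 arrays. Akap3 had 8670 in adult testis (1456591_x_at) and was at the floor in fetal and neonatal testis and in neonatal and adult ovary, and in fetal ovary it stood at 79.1, just above the floor. Its ratio to neonatal testis was at least 115.2. The second Akap3 probe set (1421531_at) had 4099 in adult testis and the floor elsewhere, a ratio of at least 54.4. For both genes adult testis was far above each of the other arrays by every probe set.

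The promoters of these anchoring proteins are shown because they hold a stretch in common. RefSeq promoter windows of 300 bases (assembly GRCm38.p6), from 250 before to 50 after an annotated start, were found for 6 of the 9 genes, 12 windows in all, for Akap3, Akap4, Odf2, Ropn1, Ropn1l and Meig1. The longest run of identical letters between windows of different genes was 20 bases, shared by Akap3 and the first Akap4 window, and the next longest was 14. Below are the 100 bases before each start, 5' to 3' along the gene's strand, with the shared run in capitals.
Akap3, chr6:126852998-126853097, plus strand: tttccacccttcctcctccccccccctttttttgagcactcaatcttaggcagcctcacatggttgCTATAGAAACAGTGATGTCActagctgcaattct
Akap4, chrX:7067415-7067514, plus strand: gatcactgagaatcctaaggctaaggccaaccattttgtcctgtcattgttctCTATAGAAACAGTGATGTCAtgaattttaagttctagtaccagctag
The run lies at bases -34 to -15 before the Akap3 start and -47 to -28 before the Akap4 start, in the same orientation. On either strand it occurred in 2 of 32851 windows of the table, these 2. It ends in the octamer TGATGTCA, which 3.62% of all windows hold on either strand and which Akap3 has again at its start. The cAMP response element TGACGTCA, the site bound by CREB and CREM factors, was in none of the 12 windows and in 1.79% of all windows. The run was found by searching these windows and is a description of the letters, with no bearing here on which factor binds.

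Cabyr, Ropn1 and Ropn1l are further proteins of the fibrous sheath. Cabyr binds calcium, and all of them carry a domain like the one by which protein kinase A docks onto its anchoring proteins. Cabyr, on chromosome 18, had 5572 in adult testis (1424558_a_at), 75.4 in neonatal testis and 80.0 in neonatal ovary, and was at the floor in fetal testis and in fetal and adult ovary. The ratio to neonatal testis was 73.9. The other Cabyr probe sets reached 5496 and 2289 in adult testis and stayed at the floor on all others. Adult testis was thus far above the rest by each of them, and no second array differed from the floor by a margin that the probe sets shared.

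Ropn1, on chromosome 16, had 1 probe set. It gave 5998 in adult testis, 90.2 in neonatal ovary and 83.2 in adult ovary, and the floor in fetal and neonatal testis and in fetal ovary. The ratio to neonatal testis was at least 79.7 and that to adult ovary 72.1. Ropn1l, its paralog on chromosome 15, was above the floor on more arrays than Ropn1. Its brighter probe set (1423959_at) had 9532 in adult testis, 233.3 in neonatal testis, 133.5 in fetal testis, 165.3 in neonatal ovary, 97.0 in adult ovary and the floor in fetal ovary. Neonatal testis, the highest of the 5 lower arrays, lay 40.9-fold below adult testis. The second Ropn1l probe set (1457627_x_at) had 3295 in adult testis, 75.4 in neonatal testis and the floor on the other 4 arrays, so the intermediate levels of Ropn1l rest on 1 probe set of its 2.

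The Ropn1l promoter is shown for its resemblance to an X-box, the paired half-site bound by RFX factors of cilia genes. The pattern searched on either strand, GTTGC and GNNAC with 3 free bases between them, was written after the windows had been read, and the match is in capitals.
Ropn1l, chr15:31453690-31453789, minus strand: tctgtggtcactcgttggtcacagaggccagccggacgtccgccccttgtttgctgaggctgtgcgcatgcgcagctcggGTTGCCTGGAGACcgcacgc
The match begins 20 bases before the start. One of the Meig1 windows also holds the pattern, beginning at base 38 after that start, and 1.44% of all windows hold it. With 4 free bases the pattern occurs in Akap3, where it begins 38 bases before the start and runs into the stretch shared with Akap4, and in 1.73% of all windows.

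Odf1 and Odf2 are structural proteins of the outer dense fibres. Odf1, on chromosome 15, had 8479 in adult testis (1422585_at) and was at the floor in fetal and neonatal testis and in all 3 ovaries, a ratio of at least 112.6. Its other probe sets reached 6459 and 5340 in adult testis and stayed at the floor on all others, with ratios to neonatal testis of at least 85.8 and at least 70.9. Odf1 was therefore seen in adult testis alone by all 3 of its probe sets.

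Odf2, on chromosome 2, gave different answers by probe set. Besides the dense fibre protein, this gene encodes forms of cenexin, a protein of the mother centriole in dividing cells. The brightest probe set (1426040_a_at) had 8795 in adult testis, 99.5 in neonatal testis, 81.2 in fetal testis, 183.1 in neonatal ovary, 81.3 in fetal ovary and 81.1 in adult ovary. The ratio was 88.4 to neonatal testis and 108.5 to adult ovary. A second probe set (1435216_a_at) had 6512 in adult testis, 175.9 in neonatal ovary and the floor on the other 4 arrays. These probe sets put adult testis far above the rest and neonatal ovary next.

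The remaining Odf2 probe sets showed a much smaller difference or none. Probe set 1454735_at was bright on every array, with 1544 in adult testis, 721.6 in neonatal testis, 1088 in fetal testis, 870.7 in adult ovary, 808.3 in neonatal ovary and 852.9 in fetal ovary. Its ratio of adult to neonatal testis was 2.14, under the limit of 4. Probe set 1439918_at had 331.2 in adult testis and 126.1 to 194.1 on the other arrays, a ratio of 2.23, and 1444101_at was at the floor on all 6. Adult testis was the highest array in each of the 4 Odf2 probe sets above the floor, with a ratio to neonatal testis between 2.14 and 88.4. Which transcripts each probe set reads is not stated in the files. Over all genes with at least 2 probe sets above the floor on both arrays, 13.1% of 3732 pairs differed by more than 4-fold in this comparison. The robust SD of 1 log2 ratio from these pairs was 0.57. It is a spread between probe sets of a gene, which can read different transcripts, and covers no variation between animals. The SD was 0.63 for adult testis against adult ovary and 0.16 to 0.32 in the comparisons without adult testis, so it is not technical spread alone.

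Oaz3 and Meig1 serve the assembly of the tail. Oaz3 is the antizyme of haploid germ cells, a relative of the proteins that bind ornithine decarboxylase, and is needed for the firm joining of sperm head and tail. Meig1 acts at the manchette, the microtubule skirt that carries cargo to the growing tail. Oaz3, on chromosome 3, had 10273 in adult testis (1437011_x_at), 86.8 in neonatal ovary and the floor on the other 4 arrays, a ratio to neonatal testis of at least 136.4. A second probe set (1437010_a_at) had 9341 in adult testis and the floor elsewhere. The other 4 Oaz3 probe sets were at the floor on all 6 arrays, adult testis included. The call for Oaz3 thus rests on 2 of its 6 probe sets, whose names carry the suffixes _x_at and _a_at. On this platform _a_at marks a probe set that reads several transcripts of 1 gene, and _x_at one with probes that can also bind unrelated transcripts.

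Meig1, on chromosome 2, had 1 probe set (1423410_at). It gave 10548 in adult testis and the floor in fetal and neonatal testis and in fetal, neonatal and adult ovary, the largest ratio of the 9 genes on this scale, at least 140.1. Because its floor is shared by all genes, the order of such lower bounds follows the adult testis signal alone.

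In all, 19 of the 26 probe sets were 4-fold or more higher in adult than in neonatal testis, and 7 were not, 3 of Odf2 and 4 of Oaz3. The 19 had adult testis signals between 2289 and 10548, and 11 of them were at the floor on each of the other 5 arrays. The matching shares of all probe sets on the platform were not computed, so these counts of probe sets have no background. Shares of all genes use only the brightest probe set of each gene and cannot stand in for them. By the brightest probe set, 3 of the 9 genes (Akap4, Odf1 and Meig1) were at the floor on all 5. Of all 18193 genes, 4.91% were likewise at the floor on these 5 arrays and at 4 times the floor or more in adult testis.

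**Figure D2:**
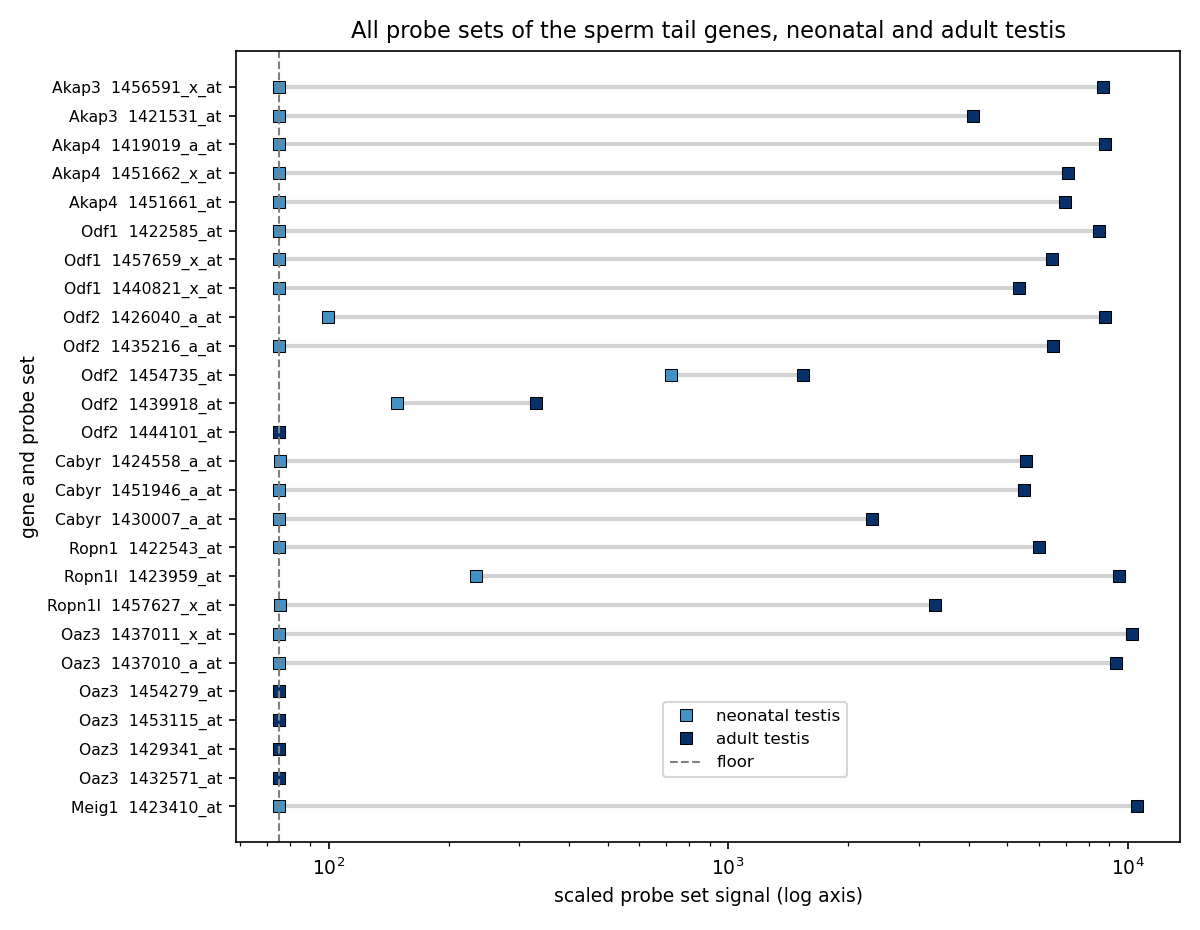
Scaled signal (log axis) of all 26 probe sets in neonatal testis (light squares) and adult testis (dark squares), joined by a line; signals under the floor of 75.3 (dashed line) are drawn at it. For 19 probe sets the adult square lies at 2289 or higher, whereas 3 probe sets of Odf2 and 4 of Oaz3 show a ratio of at most 2.23.

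**Figure D3:**
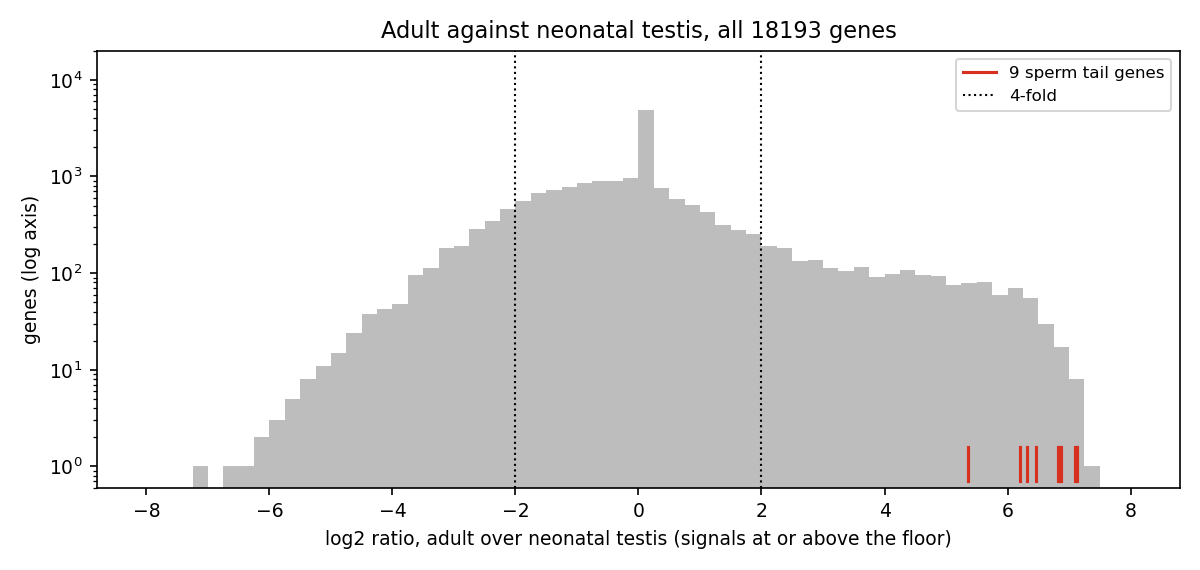
Distribution of the log2 ratio of adult to neonatal testis over 18193 genes (grey bars, number of genes on a log axis), with dotted lines at 4-fold and a red tick for each of the 9 sperm tail genes. The ticks lie at the right end, from the 40.9-fold of Ropn1l to the at least 140.1-fold of Meig1.

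Before adulthood, and in ovary at every age, none of the 9 genes reached a 4-fold difference. This held for neonatal against fetal testis (0.357% of all genes higher and 0.44% lower), neonatal testis against neonatal ovary (0.962% and 1.4%), fetal testis against fetal ovary (0.44% and 0.192%), neonatal against fetal ovary (0.759% and 0.231%) and adult against neonatal ovary (1.48% and 1.89%). These comparisons share arrays with one another. Akap4, Odf1 and Meig1 were at the floor on both arrays of each comparison, and other members in some, so the floor fixed those ratios. Shares of all genes this small also make the absence of calls among 9 genes uninformative. Smaller differences lay in Ropn1l and Odf2. Ropn1l was 1.75-fold higher in neonatal than in fetal testis and at least 1.77-fold higher in fetal testis than in fetal ovary. At a ratio of 2 or more, 2 of the 9 genes were higher in neonatal than in fetal ovary, against 3.6% of all genes. They were Odf2, at 2.25-fold, and Ropn1l, at least 2.20-fold. Odf2 was also 2.26-fold lower in adult than in neonatal ovary, where 6.87% of all genes were 2-fold or more lower. The neonatal ovary array had the largest scaling factor, 1.26, against 0.913 for fetal ovary. In signals as deposited, Odf2 had 145.4 in neonatal, 89.0 in fetal and 85.7 in adult ovary, differences of less than 2-fold. Ropn1l had 131.2 in neonatal and 62.8 in fetal ovary, the latter under the floor. The scaled differences were not shared by all probe sets. The second Odf2 probe set had 175.9 in neonatal ovary and the floor in fetal and adult ovary, whereas 1454735_at had 808.3 in neonatal, 852.9 in fetal and 870.7 in adult ovary. The second Ropn1l probe set was at the floor in all 3 ovaries.

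Odf2 and Ropn1l are genes of ciliated cells as well as of sperm, and markers of other epithelia were read beside these values. Of 14 markers of multiciliated epithelium, 4 were above the floor in neonatal ovary (Dnah9, Rsph1, Ccdc153 and Tppp3), 2 in fetal ovary and 3 in adult ovary, with summed signals of 1478, 571 and 711. Foxj1, the master regulator of motile cilia, was at the floor in all 3 ovaries. The oviduct and duct markers summed to 14269 in neonatal ovary, 5513 in fetal ovary and 2540 in adult ovary. The part of these cells in the Odf2 and Ropn1l signals was not tested. In adult testis 9 of the 14 ciliated cell markers were above the floor, among them Tekt1 at 6268 and Rsph1 at 8789, which sperm share with cilia.

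Genes whose signals followed the same course were sought by the root mean square difference in log2 signal, with the floor applied, over the 6 arrays. For members at the floor on 5 arrays this measure reads the adult testis signal alone, and it compares brightness, not RNA amount. Nearest to Akap4 were 1700019M22Rik and Plaat5, and nearest to Meig1 and Oaz3 were Tnp1, the transition protein of spermatid chromatin, and Spata4. Their adult testis signals were 8758, 8799, 10201 and 10201, in this order, and their signals on the remaining arrays were all at the floor. More can be read from the members seen on several arrays. Nearest to Ropn1l was Rsph1, a protein of the axonemal radial spoke, with a difference of 0.43 and signals of 8789 in adult testis, 248.4 in fetal testis, 189.9 in neonatal testis and 84.2 to 163.4 in the ovaries. Nearest to Odf2 was St6galnac2 (0.20), with 8496 in adult testis, 213.2 in neonatal ovary and at most 86.2 on the others, and second was Spata33 (0.20).

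Other genes of the fibrous sheath and its enzymes were mostly higher in adult testis too, 8 of 10 measured against neonatal testis with none lower and a median log2 ratio of 4.65. Against all genes, 10.7% higher and 10.3% lower, the sheath genes stood far to one side. Ldhc and Gapdhs, the lactate dehydrogenase and the glycolytic glyceraldehyde dehydrogenase of sperm, had signals of 11334 and 9991 in adult testis against 124.5 and the floor in neonatal testis. Spa17, another sperm protein with the docking domain, had 9760 against 511.3, and was above the floor on all 6 arrays. Tssk6, a kinase of spermatids, had 4954 against the floor. Slc25a31, the ADP/ATP carrier of germ cells, was not called at 1.94-fold, with 1616 in adult testis, 833.9 in neonatal testis and 907.9 in fetal testis, and neither was Rhpn1, which binds ropporin, at a ratio of at least 2.89. With the hybridization controls both passed, at 4.84-fold and at least 5.30-fold, and 10 of 10 genes were higher. The medians of this and the following lists include ratios against the floor, which are lower bounds.

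Of 9 other genes of the outer dense fibres and tail accessory structures, 7 were higher and none lower (median 5.49). Tcp11 had 8283 in adult and 118.8 in neonatal testis, Ccdc136 had 7933 and 398.4, and Odf3 had 5173 against the floor. Tekt4, a tektin of the tail, had 4354 against the floor. Odf2l, a relative of Odf2, and Spag5, a spindle protein that binds Odf1, were not called, with ratios of at least 2.88 and 2.83. In the mitochondrial sheath of the midpiece, 5 of 9 genes were higher and none lower (median 5.16), led by Smcp, the protein of the mitochondrial capsule, with 9801 against the floor, and Gk2, a glycerol kinase of testis, with 6956 against the floor. Gpx4, a selenoprotein that also serves somatic cells, had 8438 against 2472, and Vdac2 and Vdac3 had ratios of 1.77 and 0.72.

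The list of Meig1 partners and manchette genes had 7 of 13 higher and none lower (median 3.51). Rimbp3 had 6224, Spem1 3723, Spag6l 2963 and Spag16, a central apparatus protein that binds Meig1, 2363 in adult testis, each at the floor in neonatal testis. A second Spag16 probe set was at least 3.22-fold higher and not called. The genes of this list that serve transport in most cells were not called by their brightest probe sets, such as Ift20 (1720 against 1476), Ift81 (1301 against 1058), Hook1 (895.3 against 372.7) and Ran (7980 against 9073). With the hybridization controls Hook1 and Cep131 passed, at 6.00-fold and 5.03-fold. Clip1 had 350.0 against 592.3 by its brightest probe set, and by another 1608 against 144.0, 11.2-fold higher. Of 10 regulators of haploid transcription and mRNA storage, 7 were higher and none lower (median 4.49). Ybx2, which stores mRNA in germ cells, had 6618 in adult and 92.5 in neonatal testis and Fhl5 6603 against the floor. Tbpl1 and Tcfl5 had 6419 and 5757 against 305.4 and 619.4, and a second Tbpl1 probe set had 219.6 against 153.6, a ratio of 1.43. Crem, the cAMP-responsive factor of spermatids, had 4058 by its brightest probe set against the floor, and Rfx2 1819 against the floor, with a ratio of at least 1.76 by a second Rfx2 probe set. Other Crem probe sets had ratios of 2.30 and 0.54. With the hybridization controls 9 of 9 dense fibre genes, 8 of 9 mitochondrial sheath genes, 9 of 13 manchette genes and 8 of 10 haploid regulators were higher and none was lower.

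The kinase that the sheath proteins anchor showed no such rise with this scaling. Of 6 subunits of protein kinase A, none was higher and 3 were lower in adult than in neonatal testis, with a median log2 ratio of -1.95. The median of all genes above the floor on both arrays was -0.50. Prkar2b, a type II regulatory subunit, had 75.4 in adult and 2023 in neonatal testis, 26.8-fold lower. A second probe set was at least 21.9-fold lower, and the third, with 237.9 against 783.9, was 3.30-fold lower and not called. Prkar2a, the other type II subunit, had 170.2 against 874.1, 5.13-fold lower by the brightest probe set and 3.32-fold by another. Prkacb, a catalytic subunit, was 4.39-fold lower, and Prkar1b 3.41-fold lower and not called. Prkaca, the catalytic subunit that sperm use, had 1553 against 2302 by one probe set and 918.2 against 725.4 by another, and Prkar1a 4322 against 2348 by one probe set and 704 against 2679 by another. Scaling to the hybridization controls, which moved the median log2 ratio of all genes from 0.00 to 0.49, changed these calls. Prkar2b stayed 10.7-fold lower, Prkar2a and Prkacb were 2.05-fold and 1.76-fold lower and not called, Prkar1a became 4.60-fold higher, and the median of the 6 was -0.63. For all genes above the floor on both arrays the median then was 0.64. With quantile normalization or with signals as deposited Prkacb was 3.60-fold and 3.71-fold lower and not called, which left 2 of the 6 lower.

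Anchoring proteins other than Akap3 and Akap4 went both ways. Of the 12 in this list, 1 was higher and 1 lower, close to the shares of all genes. Their median log2 ratio was -0.66, near the -0.50 of all genes above the floor on both arrays. Akap14, counted above with the fibrous sheath genes and not among the 12, was also higher. It had 463.1 in adult testis against the floor in neonatal testis, at least 6.15-fold. The higher one of the 12 was Akap1, which tethers the kinase to mitochondria, with 6673 in adult and 134.9 in neonatal testis, 49.5-fold. Another Akap1 probe set had 777.9 and 564.3. Akap10 was 2.55-fold higher and not called by its brightest probe set. By other probe sets it was at least 13.7-fold higher, with 1028 in adult testis, and at least 8.62-fold, with 649.0, while the last was at the floor on both arrays. Akap12 had 7618 against 3660 and Akap8l 875 on both arrays. The lower one was Akap2, with 90.5 against 766.4, and with 221.7 against 843.4, not called, by its other probe set. With the hybridization controls 3 of the 12 were higher and none was lower, against 20.4% and 2.69% of all genes. The median was then 0.66, against 0.64 for all genes above the floor on both arrays.

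Among antizymes and genes of polyamine synthesis, 1 of 8 was higher and 2 were lower, against 10.7% and 10.3% of all genes. The median was -1.25, against -0.50 for all genes above the floor on both arrays. Azin2, an inhibitor of antizymes, had 1506 in adult and 79.8 in neonatal testis by its brightest probe set and 123.0 and 321.6 by another. Oaz1, the antizyme of most tissues, had 4148 against 10826, 2.61-fold lower, and Oaz2 had 1290 against 1705 by one probe set and 1817 against 610.2 by another. Odc1, the decarboxylase that antizymes inhibit, had 6309 against 6275 by its brightest probe set, and by another 2039 against 471.1, 4.33-fold higher. The lower genes were Srm, spermidine synthase, and Sat1, which acetylates polyamines for breakdown, at 5.04-fold and 4.92-fold. With the hybridization controls neither was called and the median of the list was 0.07, against 0.64 for all genes above the floor on both arrays. Of the antizyme genes only Oaz3 was called, and a test of the difference between them was not possible with 1 array a group.

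Outside adult testis the sperm tail genes were not called, and a few genes of these lists were. Between 0.192% and 1.89% of all genes were called in a given direction in these comparisons. At such shares the absence of calls among 9 genes does not set them apart. In adult against neonatal ovary Slc25a31 was at least 11.5-fold lower, Akap12 6.93-fold, Taf7l at least 5.18-fold, Ybx2 5.06-fold and Ccdc136 4.22-fold lower, and Prkar2b was 9.62-fold higher. Ybx2 was also 6.86-fold lower in neonatal testis than in neonatal ovary. Taf7l, an X-linked subunit of the general transcription machinery of germ cells, was 5.17-fold lower in fetal testis than in fetal ovary and 4.32-fold lower in neonatal than in fetal ovary.

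**Figure D4:**
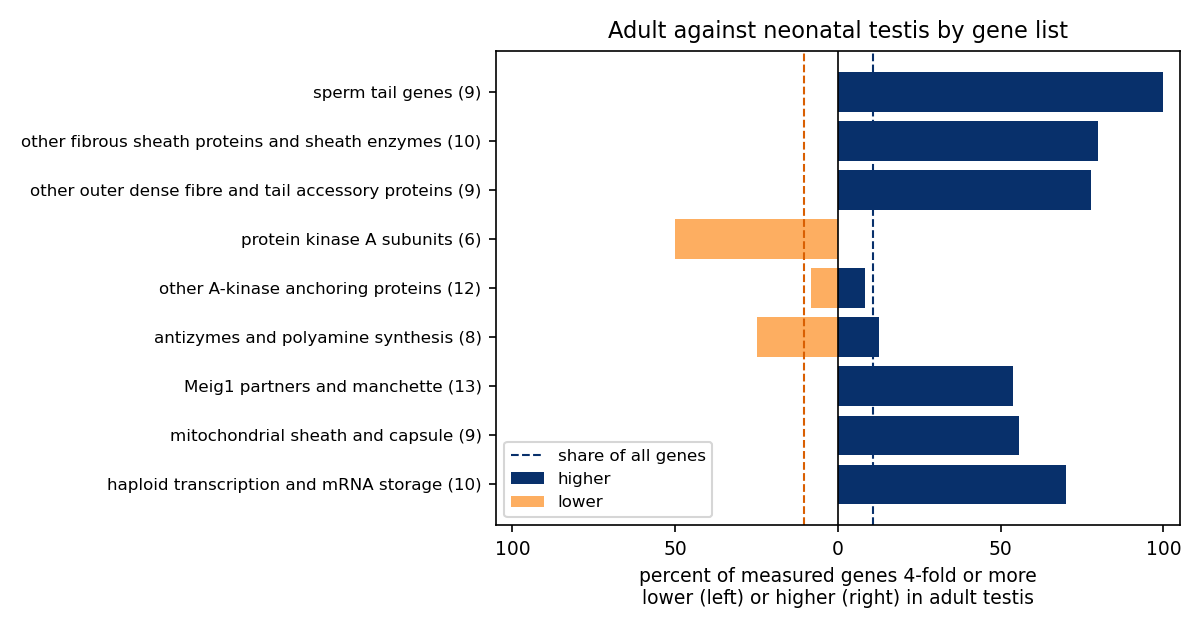
Percent of the measured genes of each list (number in brackets) that were 4-fold or more higher (right, dark) or lower (left, orange) in adult than in neonatal testis; dashed lines mark the shares of all 18193 genes, 10.7% and 10.3%. The tail, manchette and haploid lists reach far to the right with none lower, whereas the 3 called subunits of protein kinase A lie to the left.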

How the data were processed

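Total RNA of mouse gonads was labelled with biotin, per the labels' protocols, and each of the 6 samples is 1 array. The deposited table holds 1 intensity per probe set and array on a linear scale with a lowest value of 1. Per the submitters' processing notes GCOS version 1 was used, at a step not stated. How background was corrected, probes summarised or arrays scaled was not stated either, so the share of background in a dim signal is unknown.

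Each array was scaled to the same 2% trimmed mean (factors 0.913 to 1.26), and signals under 75.3, the median of all scaled signals, were raised to it before ratios. Of 45101 probe sets, 34945 had 1 gene symbol, 932 several, and 9211 none; 64 probe sets, named or not, were controls and stand for no gene. For each of 18193 genes the probe set of highest mean signal was used, and every probe set of the 9 sperm tail genes is also reported. With 1 array per group there was no test. There were 7 comparisons. The members, gene lists, limits and alternatives were chosen with earlier results of these data known. Named genes are the 9, up to 4 per list with the highest adult testis signals or called elsewhere, and the nearest genes by signal; further list genes, not called or split between probe sets, were picked after their values were seen. Motifs were searched in 32851 RefSeq windows. Python 3.11.15, NumPy 2.4.6 and pandas 2.3.3 were used.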

Additional observations from a re-analysis of the deposited data

How the results depend on the processing

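The 9 of 9 genes called higher in adult testis, against neonatal testis and against adult ovary, stayed 9 of 9 with deposited signals, with quantile normalization, with scaling to a common median or to 9 hybridization controls, floors at the 25th or 75th percentile, 16 added in place of a floor, the mean of all probe sets, and ratios of 2 or 8. A further setting left out probe sets that have a suffix letter before _at (a, s, x and the like). The letter a marks several transcripts of 1 gene, not binding to other genes. No Cabyr probe set was left, and 6 of 8 members were called. Of all genes, 10.2% were then higher than in neonatal testis and 10.3% than in adult ovary. The log2 ratio to neonatal testis was then 1.10 for Odf2, and Oaz3 was at the floor on both testis arrays. The median log2 ratio of the members to neonatal testis was 6.82, and 7.72 with the hybridization controls, 7.58 and 4.68 with floors at the 25th and 75th percentile, and 6.04 without the probe sets with a suffix letter. That to adult ovary was 6.82, and 7.72 with the hybridization controls and 4.68 with the floor at the 75th percentile. Because most of these ratios are taken against the floor, a floor set lower or higher moves them by construction. For single members, 50 of 80 log2 ratios under these alternatives moved by less than 0.57, 30 moved by more, and 0 changed sign. This limit is the SD from pairs of probe sets of a gene, which is not technical spread alone. With 16 added in place of the floor, 1 member (Akap3) was called lower in fetal testis than in fetal ovary, as were 0.275% of all genes. This call sets a scaled signal of 4.12 in fetal testis, under the floor, against 79.1 in fetal ovary, just above it. It rests on the brightest Akap3 probe set, and the other was under the floor on both arrays. At a ratio of 2, 2 members were called higher in neonatal than in fetal ovary and 1 lower in adult than in neonatal ovary. Over all genes, 1939 were higher in adult than in neonatal testis, against 3711 with the hybridization controls and 1172 with the floor at the 75th percentile. Several other pathway lists depend on the scaling, as given beside them. No paired analysis was possible because each group has 1 array. Signals near the floor cannot be told from background. The adult testis signals of Oaz3 and Meig1, 10273 and 10548, come near the highest on that array, 12070, so their ratios may be limited on both sides. Those of Cabyr and Ropn1, 5572 and 5998, lie further below it.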
